A study of Bos taurus with 9 samples.

Results

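The zona pellucida and sperm-binding genes described here are ZP2, ZP3, ZP4, ASTL, IZUMO1R, CD9 and CD81, whose products build the coat of the mammalian egg or act where sperm and egg meet. They were listed by symbol, with earlier results of these data known, and all 7 were found among the 17852 genes of the deposited table. The study asked, per its title, whether taurine improves the maturation of bovine oocytes exposed to microplastics. RNA of bovine oocytes at metaphase II, the stage at which an egg is ready for fertilization, was sequenced in 9 libraries. In 3 libraries the oocytes had received both microplastics and taurine (an amino sulfonic acid), in 3 they had received microplastics alone, and 3 were controls with neither. The 3 groups share tissue, species and stage. The labels give no polymer, particle size, dose, exposure time, breed, animal age or number of oocytes per library. They also do not say whether the libraries within 1 group derive from different animals or cultures. Each p-value below therefore sets a difference against the spread between these libraries alone, and that spread may be technical.

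The zona pellucida is a fibrous glycoprotein shell that the growing oocyte secretes around itself. In cattle it is built of ZP2, ZP3 and ZP4, while ZP1, known from other mammals, is not part of it. In mouse, sperm bind the zona at ZP2, and after fertilization the cortical granules release ovastacin, the metalloprotease encoded by ASTL, which cleaves ZP2 so that no further sperm bind. On the egg membrane IZUMO1R, also called JUNO, is the receptor of the sperm protein IZUMO1, and the tetraspanins CD9 and CD81 organise the membrane for fusion with sperm, roles also known from mouse.

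Libraries held 21.17 to 22.74 M estimated reads, and 13206 genes passed the expression filter, all 7 of these genes among them. All 16 oocyte marker genes were measured and passed the filter. Their summed level was 79944 to 99000.4 CPM in taurine libraries, 38843 to 45908 CPM in microplastics libraries and 85806 to 107287 CPM in control libraries, where CPM are depth-scaled counts with TMM factors applied. In TPM, which has no TMM factors, these oocyte sums were 62764 to 67965.5, 47853 to 54450 and 68359 to 73953 in those groups. Between microplastics and control libraries 4 oocyte markers rose and 5 fell, with BTG4, the gene with the most reads of that list, among those that fell. Of all genes tested, 9.68% were called higher and 14.7% lower there. Cumulus and granulosa markers summed to 517 to 569 CPM in taurine, 418 to 519 CPM in microplastics and 511 to 611 CPM in control libraries. In TPM the cumulus and granulosa sums were 207 to 243, 224 to 302 and 174 to 270 in those groups. Their microplastics sums were thus not lower on that scale. Of the 16 such genes in the table, FSHR, a defining one, had no read in microplastics or control libraries and at most 2 in a taurine library. Other genes of that list were well covered. HAS2 averaged 101, 77.7 and 109 CPM in the taurine, microplastics and control libraries, and STAR 281, 309 and 283 CPM. TNFAIP6 reached 1251 reads in a control library and at most 11 in a microplastics library, a change that was not called. The microplastics libraries correlated best with each other, at 0.981 over all genes tested. Each taurine library correlated best with a control library, taurine 1 and taurine 2 with control 3 (0.976 each) and taurine 3 with control 2 (0.977). Control 3 and control 2 in turn were nearest to taurine 1 and taurine 3. Control 1 was nearest to control 2 (0.975), of its own group. Apart from control 1, the taurine and control libraries thus do not group by their labels, which are taken here as given. The taurine and control values of the 7 genes are therefore reported library by library. Other genes are given mostly as group means or fitted changes, which rest on those labels. In bulk RNA of this kind, fewer cells of a type and less RNA per cell cannot be told apart.

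Levels were compared between genes in TPM, which the authors deposited and which correct for depth and transcript length. ZP2 was highest of the 7 in every library and ranked between 14 and 41 among all genes. ZP4 came second in all 9 libraries, at ranks 24 to 214, and ZP3 came after it, at ranks 152 to 427. CD81 followed, and was above ASTL and CD9 in every library. ASTL and CD9 changed places: CD9 had the higher TPM in taurine 2, taurine 3 and control 2, and ASTL in the other 6 libraries, so their order does not stand beyond the spread between libraries. IZUMO1R was lowest throughout, with 4.96 to 13.4 TPM and ranks 4716 to 6665. Even so its smallest library held 165 estimated reads, far above the floor of 3 counts.

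**Figure D1:**
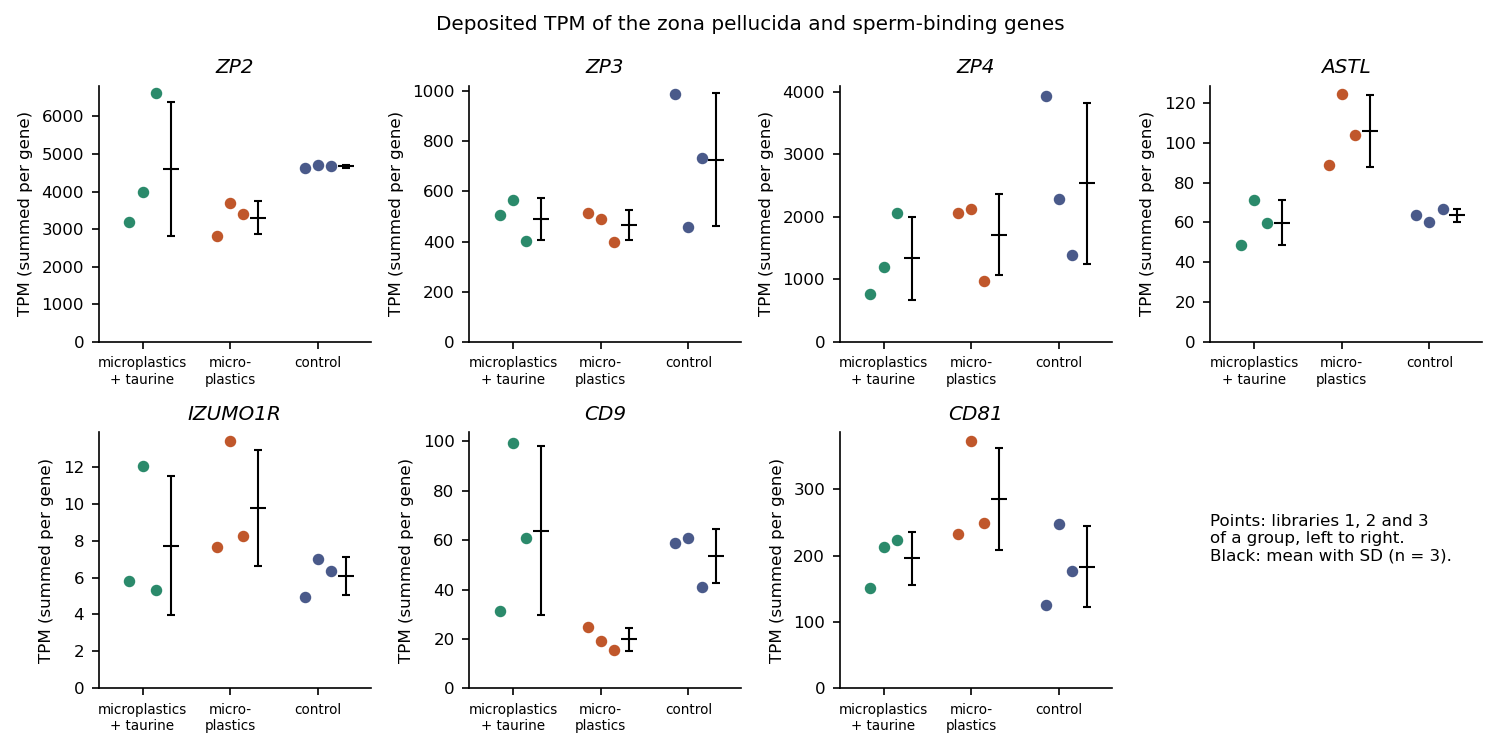
Deposited TPM of each gene (vertical axes) in the taurine, microplastics and control libraries; points are libraries and black marks are means with SD over 3 libraries. CD9 sits at 15.6 to 24.7 TPM in the microplastics libraries, below every taurine library (31.2 to 99.4) and every control library (40.97 to 60.9), whereas the ZP4 libraries of the 3 groups overlap.

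Microplastics against control was the first comparison made for these transcripts. With the quasi-likelihood test of edgeR, 3 of the 7 genes were called at a Benjamini-Hochberg adjusted p under 0.05, all lower: ZP2, ZP3 and CD9. Over all genes tested, 24.3% were called in this comparison, 9.68% higher and 14.7% lower. The same 3 genes were those whose microplastics libraries lay entirely below the control libraries in TMM CPM. Such separation, in either direction, was seen for 44.9% of all genes. A median log2 change of 0.04 over all genes stands beside the values below.

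The second comparison asked what taurine did on top of microplastics, and it shares the microplastics libraries with the first. ZP2 and CD9 were called higher, 2 of the 7 genes. Of all genes, 14.2% were called, 10.1% higher and 4.13% lower. ZP2, ZP3 and CD9 had taurine libraries entirely above the microplastics libraries in TMM CPM, against 36.0% of all genes with separation in either direction. Between taurine and control none of the 7 was called, beside 0.00757% of all genes (1 gene by edgeR, 5 by DESeq2), and none had separate libraries, beside 9.15% of all genes. ZP3 was the 1 gene of the 7 at an unadjusted p under 0.05 there, as were 753 of all genes. Without control 3 and taurine 3, 783 genes were called between taurine and control, still none of the 7, and the edgeR log2 changes of ZP2 and ZP4 were then -0.60 (adjusted p = 0.0723) and -1.89 (adjusted p = 0.0589). Those of CD9 and CD81 were -0.087 and -0.25.

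ZP2 encodes the zona protein to which sperm bind in mouse. It had 5900.2, 7504 and 13785 CPM in the taurine libraries, 3749, 5131 and 4392 CPM in the microplastics libraries and 10312, 10083 and 8346 CPM in the control libraries. All 3 microplastics libraries were below every other library, and taurine 3 was above all controls while taurine 1 and taurine 2 were below them. ZP2 took 0.812% ± 0.309 of all reads with taurine, 0.546% ± 0.077 with microplastics and 0.843% ± 0.028 in control (SD, n = 3 each). With microplastics ZP2 fell relative to control by 1.11 on the log2 scale (SE 0.27, 95% interval -1.70 to -0.53, edgeR adjusted p = 0.0120). That call was lost without microplastics 1 (-0.99, adjusted p = 0.0598) and without microplastics 3 (-1.09, adjusted p = 0.0503).

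With taurine ZP2 rose relative to microplastics alone, by a log2 change of 1.03 (SE 0.27, 95% interval 0.45 to 1.62, edgeR adjusted p = 0.0247). This call depended on single libraries. Without taurine 3 the log2 change was 0.60, and without microplastics 1, 2 or 3 in turn it was 0.91, 1.14 and 1.01, none of them called. With scaling by library size only the change was 0.57 and not called (edgeR adjusted p = 0.0774). The median of all genes was then -0.45, and relative to it the ZP2 change was 1.02. Under that scaling the ZP2 fall with microplastics against control was still called (-0.63, edgeR adjusted p = 0.0436, median of all genes 0.52). On the TPM scale taurine and microplastics libraries overlapped, with 3195, 3991 and 6617 TPM in taurine libraries and 2827, 3681 and 3413 TPM in microplastics libraries. Control libraries had 4636, 4717 and 4679.5 TPM, above every microplastics library. On log2(TPM + 1) with limma-trend neither ZP2 change was called, at -0.51 for microplastics against control and 0.42 for taurine against microplastics. Between taurine and control the ZP2 log2 change was -0.08, with an interval from -0.66 to 0.50.

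ZP3 encodes the protein with which the other zona proteins assemble into filaments. Its levels were 516, 587 and 461 CPM with taurine, 375, 375 and 281 CPM with microplastics, and 1212, 539 and 721 CPM in control. The microplastics libraries were lowest in CPM, and control 1 stood above the rest by a wide margin. On the TPM scale, which has no TMM factors, the groups overlapped, with 505, 564 and 402 TPM in taurine libraries, 512, 489 and 396 TPM in microplastics libraries and 987, 457 and 733 TPM in control libraries. ZP3 fell with microplastics by 1.26 on the log2 scale (SE 0.26, 95% interval -1.83 to -0.69, edgeR adjusted p = 0.00525). The change was -0.88 without control 1, still called, and was not called on log2(TPM + 1), at -0.58. For taurine against microplastics the log2 change was 0.60 with an interval from 0.04 to 1.16 and an adjusted p of 0.145 by edgeR, and for taurine against control it was -0.66, interval -1.22 to -0.10, adjusted p = 0.855.

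ZP4 varied widely among libraries of the same group. It had 1022, 1631 and 3125 CPM with taurine, 1982, 2144 and 909 CPM with microplastics, and 6352, 3555 and 1792 CPM in control. The highest library exceeded the lowest by 3.06-fold in the taurine group, 2.36-fold in the microplastics group and 3.54-fold in the control group. Its coefficient of variation was 56.2% with taurine, 40.01% with microplastics and 58.97% in control, whereas the median over all genes of at least 100 CPM was 17.5%, 11.1% and 14.9% in those groups. The groups overlapped in both scales.

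The ZP4 log2 change with microplastics against control was -1.22 (SE 0.50, interval -2.32 to -0.12), close in size to those of ZP2 and ZP3, and it did not pass in edgeR (adjusted p = 0.0990). It passed with the Wald test of DESeq2 (-1.26, adjusted p = 0.0283) and in edgeR without control 3, the lowest control library (-1.54, adjusted p = 0.0450). For taurine against microplastics it was 0.20, with an interval from -0.89 to 1.28, and turned to -0.34 without taurine 3 and to -0.12 without microplastics 3. For taurine against control it was -1.02, interval -2.11 to 0.08.

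Together the 3 zona transcripts made up 0.713%, 0.923% and 1.46% of the reads in the taurine libraries, 0.765%, 0.928% and 0.693% in the microplastics libraries and 1.49%, 1.21% and 1.06% in the control libraries. Their summed TPM was 6429 ± 2385 with taurine, 5486 ± 757 with microplastics and 7934 ± 1438 in control (SD, n = 3 each). Every microplastics library was below every control library, and the taurine libraries spanned both. The 16 oocyte markers did not move one way with microplastics: OOSP2, H1-8, DPPA3, BTG4 and GDF9 fell, ZAR1, NLRP5, NLRP9 and TCL1A rose, and 7 were not called, among them BMP15 (-0.35), KPNA7 (-0.09) and ZAR1L (0.00). Of all genes tested, 9.68% rose and 14.7% fell in that comparison. The part of the oocyte markers in the zona result was not tested. The make-up of the zona sum varied from library to library. ZP2 contributed 69.5% to 72.9% of it in the taurine libraries, 52.4% to 71.4% in the microplastics libraries and 48.5% to 68.9% in the control libraries.

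**Figure D2:**
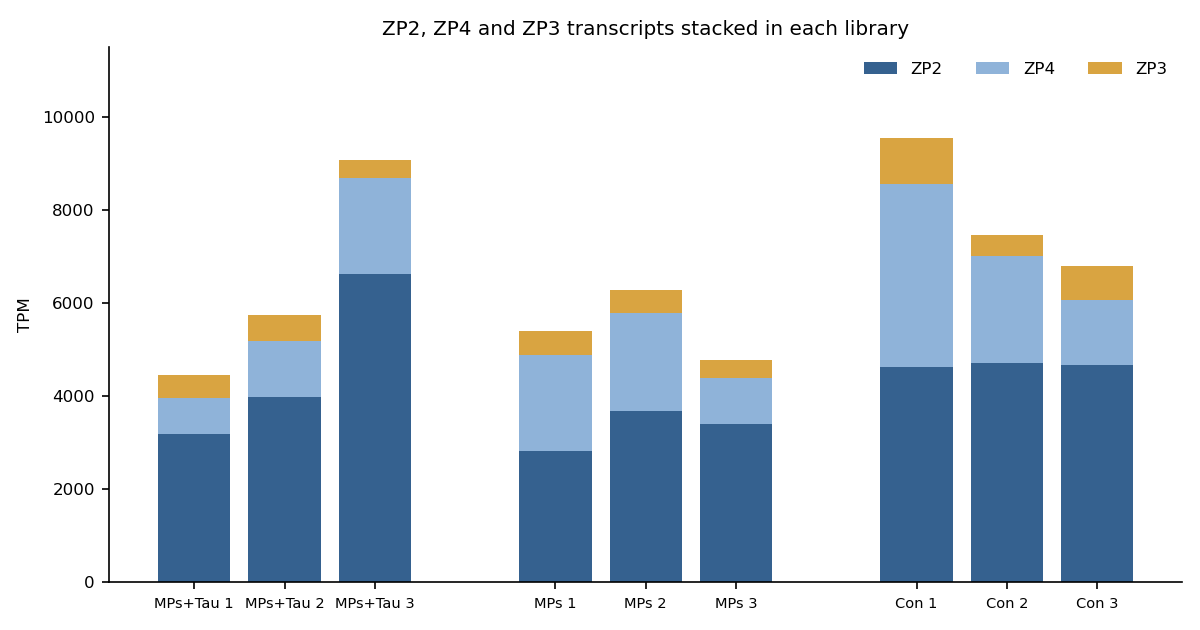
Deposited TPM of ZP2, ZP3 and ZP4 stacked for each library (bars start at 0, 1 bar per library). The microplastics bars reach 4781 to 6285 TPM and the control bars 6794 to 9549.8 TPM, while the taurine bars run from 4460 to 9081 TPM.

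Ratios within a library do not depend on how libraries are scaled to each other. The log2 ratio of ZP2 to ZP3 counts was 4.03 ± 0.76 with taurine, 3.69 ± 0.33 with microplastics and 3.62 ± 0.57 in control, and the groups overlapped. For ZP4 to ZP3 it was 1.74 ± 0.92 with taurine, 2.20 ± 0.45 with microplastics and 2.14 ± 0.74 in control (SD, n = 3 each). The ZP2 to ZP3 ratio differed by 0.07 between microplastics and control, less than the spread within either group. These ratios are descriptions without a test.

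ASTL, the ovastacin gene, had 95.8, 143 and 121 CPM with taurine, 132, 196 and 150.2 CPM with microplastics, and 145, 131 and 132 CPM in control, and the groups overlapped. Its log2 change was 0.23 for microplastics against control (interval -0.20 to 0.66, edgeR adjusted p = 0.411) and -0.41 for taurine against microplastics (interval -0.83 to 0.02, adjusted p = 0.190). On the TPM scale the microplastics libraries stood apart. There ASTL had 48.8, 71.2 and 59.5 TPM with taurine, 88.8, 125 and 104 TPM with microplastics, and 63.6, 59.96 and 66.8 TPM in control. With scaling by library size only, edgeR called ASTL in both comparisons, at 0.71 and -0.84 (adjusted p = 0.0160 and 0.0130), but that scaling also moved the median of all genes to 0.52 in the first comparison and -0.45 in the second. Relative to those medians the ASTL changes were 0.19 and -0.39. On log2(TPM + 1) ASTL was also called in both comparisons, at 0.72 and -0.81 (limma-trend adjusted p = 0.0128 and 0.0126). The medians of all genes on that scale were 0.42 and -0.37.

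ASTL was the 1 gene of the 7 with more than 1 transcript in the table. The longer, XM_588342, has an implied length of 2518 nt, and the shorter, XM_010814034, of 1686 nt. XM_588342 took 60.2%, 62.1% and 39.7% of the ASTL reads in the taurine libraries, 73.1%, 74.4% and 73.4% in the microplastics libraries, and 51.6%, 49.9% and 70.2% in the control libraries. The microplastics libraries were thus alike and above all others, with control 3 closest to them. The 95% Wilson intervals of these shares reach at most 2.15 percentage points to either side and cover counting error only, and the assignment of reads to overlapping transcripts adds an error that was not measured.

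Among 998 genes with more than 1 transcript and at least 100 reads in each library, the leading transcript's share separated microplastics from control libraries in 20.0%, 7.82% higher and 12.2% lower, which is the background for the separation of ASTL. Taurine and microplastics libraries separated in 15.7%, 9.82% higher and 5.91% lower. In TPM, XM_588342 stood at 26.7 ± 9.70 with taurine, 69.01 ± 12.6 with microplastics and 30.5 ± 9.11 in control, and XM_010814034 at 33.2 ± 8.57, 36.8 ± 5.41 and 33.01 ± 6.14 in the same groups (SD, n = 3). Tested one by one with edgeR, XM_588342 had a log2 change of 0.60 for microplastics against control (adjusted p = 0.152) and -0.86 for taurine against microplastics (adjusted p = 0.0772). XM_010814034 had -0.48 and 0.40 in those comparisons (adjusted p = 0.292 and 0.452).

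IZUMO1R, the egg receptor for IZUMO1, had 8.74, 18.5 and 9.03 CPM with taurine, 8.26, 15.2 and 8.65 CPM with microplastics, and 8.99, 12.2 and 9.20 CPM in control. Replicate 2 was the highest library in each group, and the groups overlapped in CPM. In TPM the microplastics libraries (7.65, 13.4 and 8.25) lay above the control libraries (4.96, 6.99 and 6.34). With scaling by library size only, the log2 change there was 0.56 and not called, beside a median of 0.52 over all genes. With TMM factors the IZUMO1R log2 change was 0.08 for microplastics against control (interval -0.66 to 0.82). It was 0.18 for taurine against microplastics (-0.56 to 0.91) and 0.26 for taurine against control (-0.48 to 1.00). None passed by edgeR, and none of the intervals excludes a difference of moderate size in either direction.

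CD9, the tetraspanin that mouse eggs need for fusion with sperm, had the largest changes of the 7 in both comparisons with the microplastics libraries. It had 25.9, 83.9 and 56.7 CPM with taurine, 14.7, 11.8 and 8.93 CPM with microplastics, and 58.5, 58.3 and 32.7 CPM in control. No microplastics library reached any library of the other groups, in CPM or in TPM. The estimated reads behind these values were 544 to 1738 with taurine, 252 to 389 with microplastics and 685 to 1103 in control, so counting error was small beside the spread between libraries.

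With microplastics CD9 averaged 11.8 ± 2.87 CPM, against 49.8 ± 14.9 CPM in control (SD, n = 3 each), and fell by 2.08 on the log2 scale (SE 0.39, 95% interval -2.92 to -1.23, edgeR adjusted p = 0.00316). With taurine it averaged 55.5 ± 29.03 CPM and rose relative to microplastics by a log2 change of 2.23 (SE 0.39, interval 1.38 to 3.08, edgeR adjusted p = 0.00321). As fitted folds these were a 4.21-fold fall and a 4.69-fold rise. Both calls held in every alternative run. With any 1 library left out, the log2 change lay between -2.29 and -1.89 in the first comparison and between 1.80 and 2.57 in the second. For taurine against control the CD9 log2 change was 0.15, with an interval from -0.65 to 0.96 that does not show the levels to be equal.

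Cumulus cells express CD9 too. With TMM factors, 5 of 13 cumulus and granulosa markers tested fell with microplastics against control and none rose. Of all genes 14.7% fell. With taurine against microplastics 4 of these markers rose, beside 10.1% of all genes. The 5 that fell were SERPINE2 (42.3 CPM with taurine, 13.2 with microplastics, 46.1 in control), PTGS2, GJA1, VCAN and INHA. Unscaled reads of VCAN overlapped (743 to 930 with microplastics, 823 to 920 in control), while those of the others did not. STAR, the marker with the most reads, was at 281, 309 and 283 CPM in the taurine, microplastics and control libraries, and its log2 changes were 0.13 and -0.13, neither called. Some markers of other cells moved too. Both erythroid genes tested, HBA and HBA1, fell with microplastics (log2 changes -1.61 and -1.85), their sum being 17.3 to 23.9 CPM in taurine, 10.6 to 17.7 CPM in microplastics and 31.03 to 67.2 CPM in control libraries. Of 2 leukocyte markers tested, CD3E fell by 0.84 (edgeR adjusted p = 0.0437) and CD68 was not called (-0.70). PTPRC and CD14 did not pass the expression filter. VWF, the 1 endothelial marker tested, was not called (-0.06). The part of these cells in the CD9 result was not tested.

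CD81, the related tetraspanin, had 134, 193 and 224 CPM with taurine, 148, 249 and 154 CPM with microplastics, and 134, 254 and 152 CPM in control. The 3 groups overlapped fully. Its log2 change was 0.03 for microplastics against control (interval -0.59 to 0.65), 0.00 for taurine against microplastics (-0.62 to 0.62) and 0.03 for taurine against control (-0.59 to 0.65). On the TPM scale taurine libraries had 151, 213 and 224 TPM, all below the microplastics libraries at 233, 373 and 249.9 TPM, while control libraries had 126, 248 and 177 TPM. Without TMM factors the median change over all genes moved that way. With scaling by library size only, the CD81 log2 change for taurine against microplastics was -0.44, beside a median of -0.45 over all genes.

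Set against each other within a library, the 2 tetraspanins parted. CD81 exceeded CD9 in TPM by 4.83-, 2.15- and 3.68-fold in the taurine libraries, 9.41-, 19.6- and 16.1-fold in the microplastics libraries, and 2.14-, 4.06- and 4.33-fold in the control libraries. The log2 ratio of CD9 to CD81 counts was -1.85 ± 0.60 with taurine, -3.95 ± 0.55 with microplastics and -1.85 ± 0.56 in control (SD, n = 3 each). All 3 microplastics libraries lay below all others. The differences were -2.10 for microplastics against control and 2.09 for taurine against microplastics, and both are given without a test.

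**Figure D3:**
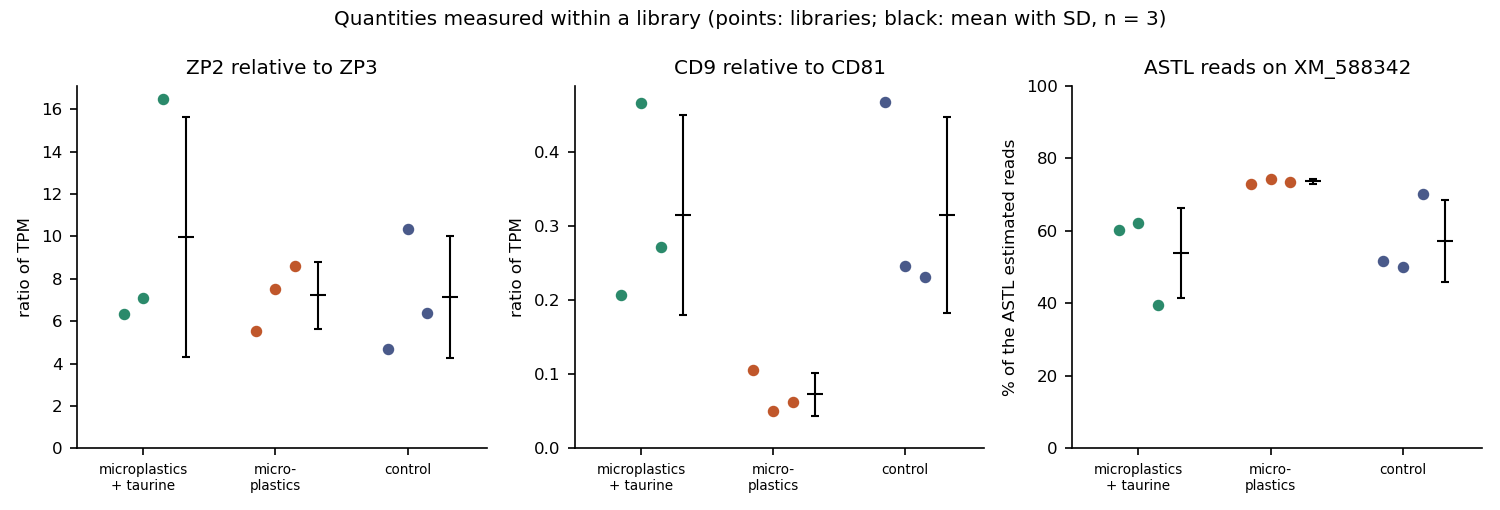
Quantities that do not depend on scaling between libraries, by group: the TPM ratio of ZP2 to ZP3, the TPM ratio of CD9 to CD81, and the percentage of ASTL reads on XM_588342; points are libraries and black marks are means with SD over 3 libraries. The CD9 to CD81 ratio is 0.0510 to 0.106 in microplastics libraries, against 0.207 to 0.466 with taurine and 0.231 to 0.468 in control, while the ZP2 to ZP3 ratios overlap.

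**Figure D4:**
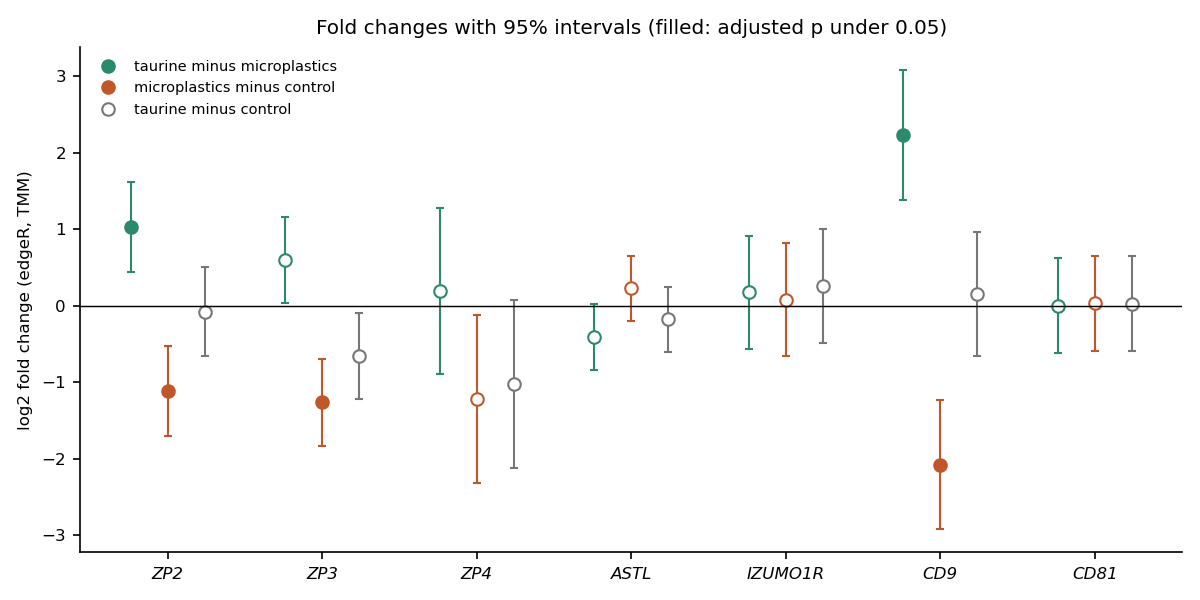
Log2 fold changes of the 7 genes from edgeR (vertical axis) with 95% intervals for the 3 comparisons; filled points have an adjusted p under 0.05. Filled points appear for ZP2, ZP3 and CD9 in microplastics minus control and for ZP2 and CD9 in taurine minus microplastics, and for no gene in taurine minus control.

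The likeness of profiles was measured over the 9 libraries as the root-mean-square difference of log2 CPM after each gene's mean was removed, which is a description with no test. Among the 7 genes the smallest differences were those of IZUMO1R and CD81 (0.323), ASTL and CD81 (0.340) and ASTL and IZUMO1R (0.344), the members with small changes. The measure is not scaled by how much a gene varies, so genes that vary little lie close whatever their pattern. ZP2 and ZP3 differed by 0.507 and ZP2 and ZP4 by 0.628. The most unlike were ASTL and CD9, at 1.20.

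Among 8278 candidate genes of at least 5 CPM on average, the nearest to ZP2 were EEF1E1, a factor of the aminoacyl-tRNA synthetase complex (0.130), ADAD1 (0.153) and CTH, cystathionine gamma-lyase (0.153). ZP2 itself varied by 0.591 on that scale. EEF1E1 averaged 154 ± 49.9 CPM with taurine, 85.6 ± 6.19 CPM with microplastics and 168 ± 19.4 CPM in control (SD, n = 3). Nearest to ZP3, which varied by 0.578, were SEM1 (0.161), SLC47A1 (0.183) and MED28 (0.198).

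CD9 varied by 1.09, and the nearest profiles to it were COX17, a copper chaperone of cytochrome c oxidase (0.220), NAAA, an amidase of lipid amides (0.222), and PXMP4, a peroxisomal membrane protein (0.277). PXMP4 averaged 98.9 ± 41.96 CPM with taurine, 22.7 ± 2.56 CPM with microplastics and 105 ± 34.2 CPM in control (SD, n = 3). These neighbours were picked for their likeness, so their levels are given as a description.

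Other genes of the same biology were counted from lists, each count to be read beside all genes: 9.68% called higher and 14.7% lower with microplastics against control, and 10.1% higher and 4.13% lower with taurine against microplastics. Of 22 tetraspanins tested, CD9 and CD81 included, 1 rose, 5 fell and 16 were not called with microplastics against control, with a median log2 change of -0.39 beside 0.04 for all genes. With taurine against microplastics 6 rose and 16 were not called, with a median of 0.04. Scaling by library size alone shifts all genes, whose medians become 0.52 and -0.45, and the list medians were then 0.10 (4 rose, 5 fell) and -0.39 (3 rose, 2 fell). TSPAN13 averaged 568 ± 145 CPM with taurine, 139 ± 25.7 CPM with microplastics and 849 ± 207 CPM in control. It fell with microplastics by 2.61 on the log2 scale (edgeR adjusted p = 4.89e-05) and rose with taurine by 2.03 (adjusted p = 0.000322). TSPAN3 averaged 1080.4 ± 445 CPM, 346 ± 42.4 CPM and 1226 ± 233 CPM in the taurine, microplastics and control libraries, with log2 changes of -1.82 and 1.64, both called. CD9 was thus 1 of 5 tetraspanins that fell, TSPAN19 and TSPAN31 being the others. TSPAN33 was called higher at 0.97, a call lost without microplastics 2 (0.81), microplastics 3 (0.96), control 1 (0.96), control 2 (0.86) or taurine 2 (0.97).

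Partners of tetraspanins and egg integrins numbered 14 tested genes, of which 2 rose, 2 fell and 10 were not called with microplastics (median 0.10), and 1 rose, 3 fell and 10 were not called with taurine against microplastics (median -0.03). With scaling by library size only these were 4 and 1 (median 0.57), and 1 and 4 (median -0.45). MSN, encoding moesin, which links membrane proteins to the actin cortex, fell with microplastics by 2.05 (12.6 ± 1.75 CPM, against 52.4 ± 5.47 CPM in control, edgeR adjusted p = 3.00e-05). With taurine it stood at 45.9 ± 2.07 CPM and rose relative to microplastics, by 1.86. ITGB5, an integrin beta subunit, rose with microplastics by 1.39 (17.5 ± 3.30 CPM, against 6.67 ± 1.22 CPM in control, adjusted p = 0.00484) and fell with taurine by 1.66. ADAM10, a protease that some tetraspanins escort, rose by 0.88. ITGB3 was called lower at -0.82, a call lost on leaving out any 1 of the 6 microplastics and control libraries (-0.92 to -0.71) and with scaling by library size only (-0.35).

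Of 10 transcription factors that act on zona genes or in early oocytes, 1 rose, 2 fell and 7 were not called with microplastics (median 0.27), and 1 rose, 1 fell and 8 were not called with taurine against microplastics (median -0.11). With scaling by library size only 4 rose and 1 fell (median 0.75) in the first of these, and 1 rose and 2 fell (median -0.53) in the other. FIGLA, the activator of zona genes known from mouse, had 84.9 CPM with taurine, 101 CPM with microplastics and 143 CPM in control, with a log2 change of -0.50 that was not called. SOHLH2 fell with microplastics by 1.13 (165 ± 23.7 CPM, against 359 ± 28.5 CPM in control, edgeR adjusted p = 0.000636) and rose with taurine by 0.96, at 320.2 ± 26.3 CPM, a rise not called on log2(TPM + 1) (0.43). LHX8 was called lower at -0.89, a call lost without control 1 (-0.68) and without TMM factors (-0.40). TAF4B was called higher at 1.04 with 7.26 CPM in microplastics and 3.54 CPM in control libraries, a call lost without microplastics 2 (0.87), microplastics 3 (0.93), control 1 (1.09) or control 2 (0.99).

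The list of cortical granule release and zona hardening, the process that frees ovastacin, had 30 tested genes. With microplastics 4 rose, 5 fell and 21 were not called (median 0.13), and with taurine against microplastics 4 rose and 26 were not called (median -0.14). With scaling by library size only, 9 rose and 2 fell with microplastics (median 0.61, all genes 0.52), and none rose and 6 fell with taurine (median -0.56, all genes -0.45). STXBP3, SNAP23 and VAMP7, proteins of membrane fusion, fell with microplastics by 1.34, 0.91 and 0.90 (edgeR adjusted p = 0.000773, 0.00222 and 0.00415). The VAMP7 call was lost with scaling by library size only (-0.42), and SNAP23 and VAMP7 were not called on log2(TPM + 1), at -0.29 each. MYO5A and MYO5B, motor proteins of vesicle transport, were called higher at 0.72 and 0.66. The MYO5A call was lost on leaving out any 1 of the 6 libraries compared (0.65 to 0.81), and that of MYO5B without any of them but control 3 (0.53 to 0.72).

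GPI anchoring, by which IZUMO1R is held on the egg membrane, was represented by 27 tested genes. With microplastics 1 rose, 9 fell and 17 were not called (median -0.34; of all genes 14.7% fell), and with taurine against microplastics 6 rose and 21 were not called (median 0.06; of all genes 10.1% rose). With scaling by library size only, which by itself puts the medians of all genes at 0.52 and -0.45, the list medians were 0.13 (5 rose, 5 fell) and -0.38 (1 rose, 4 fell). PIGX, which takes part in adding the first mannose of the anchor, averaged 107 ± 11.3 CPM with taurine, 31.9 ± 2.23 CPM with microplastics and 140.0 ± 4.04 CPM in control. It fell with microplastics by 2.13 (edgeR adjusted p = 2.16e-05) and rose with taurine by 1.75 (adjusted p = 7.78e-05). PIGW fell by 1.21 and PIGY by 0.88, the last not called on log2(TPM + 1) (-0.26). In human PIGY shares a transcript with another gene, so its count is uncertain. PIGQ, at 2.11 CPM with microplastics and 0.798 CPM in control, was called higher at 1.40, a call lost on leaving out any 1 of the 6 libraries compared (0.90 to 1.63) or taurine 2 (1.40).

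**Figure D5:**
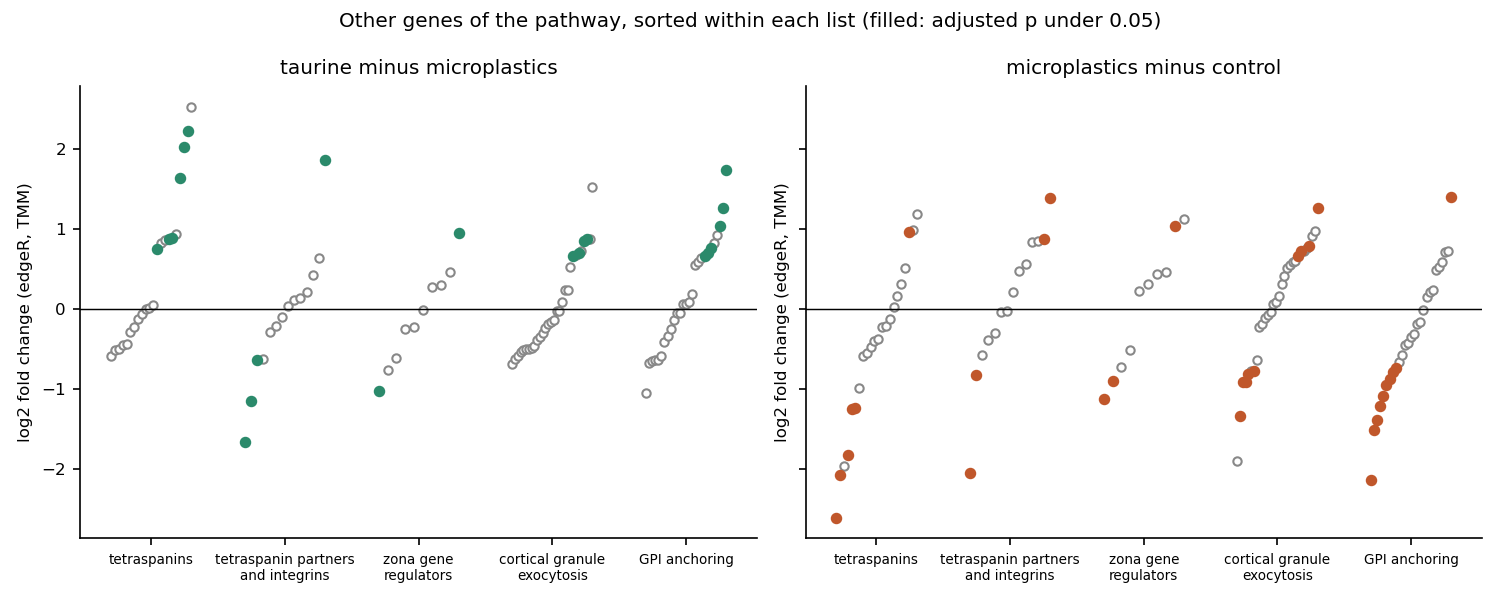
Log2 fold changes of the tested genes of each list (points) from edgeR for taurine minus microplastics and microplastics minus control; filled points have an adjusted p under 0.05. In microplastics minus control 5 of 22 tetraspanins and 9 of 27 GPI anchoring genes are called lower (5 in each list with scaling by library size only), and the lists of regulators, partners and cortical granule genes hold calls on both sides of 0.

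Of the relatives of zona proteins and of IZUMO1R, 2 genes could be tested. TECTB, which encodes a zona-domain protein of the inner ear matrix, averaged 512 ± 15.3 CPM with taurine, 250.0 ± 24.4 CPM with microplastics and 532 ± 63.7 CPM in control. It fell with microplastics by 1.09 (edgeR adjusted p = 0.000583) and rose with taurine by 1.03 (adjusted p = 0.00114), while TECTA was not called. Genes of the sperm side numbered 5 tested of 13 in the table, and none was called in any comparison. IZUMO1, the partner of IZUMO1R, had at most 2 reads in any library, below the floor of 3 counts, so sperm RNA of that gene was not detectable at this depth. ZPBP of the same list was detected in every library. It had 547 to 827 reads with taurine, 549 to 690 with microplastics and 617 to 737 in control. Its log2 change with microplastics was -0.61 (edgeR adjusted p = 0.0502). In none of the lists was a gene called between taurine and control.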

How the data were processed

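Total RNA of oocytes was extracted with TRIzol and sequenced on an Illumina platform, per the labels. For the aligner, counter, genome build and use of strand, the sources used here give no name or version. The deposited table lists 22590 transcripts. Its columns, per the file headers, are estimated counts (not normalized, 77.7% whole within a millionth), TPM and FPKM made by the authors, and a signal, the authors' counts scaled by 1 factor per library. FPKM served for implied transcript lengths, the scaled signal and the authors' group means were not used, and 0 columns lacked a sample. TPM was used for levels between genes.

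Summing the estimated counts per gene ID and rounding gave 17852 genes. Symbols from a RefSeq gene table (ARS-UCD2.0) matched 16995 of them (95.2%). No transcript, protein or promoter sequence was used here. The floor, 3 counts per library, is 0.132 to 0.142 CPM. It covers counting error only.

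All 9 libraries entered 1 fit with a coefficient per group. The tool was edgeR 4.0.16 (R 4.3.3), quasi-likelihood, TMM normalization, after its own expression filter (count 10, total 15). Benjamini-Hochberg adjustment ran over 13206 genes, with calls at an adjusted p under 0.05. CPM are TMM-scaled, with SD over 3 libraries.

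The text names all 7 genes and, from each list of related genes, up to 3 higher and 3 lower genes with the smallest adjusted p among those called in microplastics minus control. It also names the 3 genes of at least 5 CPM nearest in profile to each called member. Genes named outside this rule (TSPAN19, TSPAN31, TECTA, FIGLA, IZUMO1 and cell type markers) were chosen after their values were seen. A further gene that the rule names is not reported here. The members, lists, markers and tests were chosen with earlier results of these data known.

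Alternatives were DESeq2 1.42.0 size factors, scaling by library size only, other filters (none, or 5 CPM in 3 libraries), DESeq2's Wald test, limma-voom (limma 3.58.1), log2(TPM + 1) with limma-trend, only the groups compared, the replicate number as a block, a transcript length trend removed, an adjusted p under 0.1, control 3 and taurine 3 left out together, and each library left out. Testing ASTL transcripts one by one, and scaling by library size only for the lists, were alternatives chosen after seeing the data.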

Additional observations from a re-analysis of the deposited data

How the results depend on the processing

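CD9 kept both calls under every alternative run, and ZP3 its call in microplastics minus control under all but log2(TPM + 1) (-0.58). Genes called in microplastics minus control, 3213, became 4880 with scaling by library size only, 6036 with log2(TPM + 1), 5110 without control 3 and taurine 3, and 1715 to 4151 with 1 library left out. In taurine minus microplastics 1878 became 3089, 4374 (in the first 2 of those settings) and 888 to 2146. In taurine minus control the 1 gene called became 5 with DESeq2, 0 with the filter of 5 CPM, log2(TPM + 1), only the groups compared or the block, 783 without control 3 and taurine 3, and 0 to 2 with 1 library left out. Leaving out the TMM factors moved the share of higher calls to 82.05% (39.8% with TMM) in microplastics minus control and to 19.5% (70.98% with TMM) in taurine minus microplastics. With 1 library left out, members called were 2 to 4, 1 to 2 and 0 in the 3 comparisons. The replicate block left 1 member called in taurine minus microplastics (ZP2 lost, 0.99, edgeR adjusted p = 0.0555). The labels state no shared origin for libraries of the same number. Deviations of same-numbered libraries correlated at -0.44 to 0.26, and at 0.05, 0.18 and 0.26 between microplastics and control. With 3 libraries per group these values cannot settle whether libraries were paired.

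Signs changed only for values that were not called. In microplastics minus control these were ASTL by XM_010814034 alone (-0.48), IZUMO1R with 1 library left out (-0.24 to 0.25), and CD81 with DESeq2 size factors (-0.00595) or its Wald test (-0.00597), without control 3 and taurine 3 (-0.064), and with 1 library left out (-0.24 to 0.36). In taurine minus microplastics they were ASTL by XM_010814034 alone (0.40), ZP4 with scaling by library size only (-0.27), log2(TPM + 1) (-0.39), without control 3 and taurine 3 (-0.35) or with 1 library left out (-0.34 to 0.50), IZUMO1R (-0.24 and -0.34 in the first 2 of those, and -0.27 to 0.50 with 1 library left out), LHX8 (-0.14 and -0.23), VAMP7 with log2(TPM + 1) (-0.032), and CD81 with DESeq2 size factors (0.00823), its Wald test (0.00828), limma-voom (0.00628), the replicate block (0.025) or 1 library left out (-0.17 to 0.27). In taurine minus control they were CD9 (-0.087) and CD81 (-0.25) without control 3 and taurine 3, and with 1 library left out ZP2 (-0.52 to 0.15), IZUMO1R (-0.19 to 0.44), CD9 (-0.27 to 0.50) and CD81 (-0.14 to 0.36). With 1 library left out the log2 ratio of CD9 to CD81 ran from -2.41 to -1.78 in microplastics minus control and 1.77 to 2.40 in taurine minus microplastics; ZP2 to ZP3 from -0.19 to 0.38 and -0.09 to 0.60; ZP4 to ZP3 from -0.35 to 0.35 and -0.97 to -0.09. The causes of these changes were not tested.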
